A study of Ovis aries with 60 samples.

Results

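The CG cytosines described here lie on the unplaced scaffolds of the sheep genome assembly Oar_rambouillet_v1.0, the sequences that could not be assigned to a chromosome. Every listed cytosine whose sequence was not chr1 to chr26, chrX or the mitochondrial genome was taken. This rule gave 9909 of 313527 listed CG cytosines in the F0 rams, on 292 scaffolds, 10182 of 294661 in the F1 sperm pools, on 322 scaffolds, and 20608 of 122453 in the F2 rams, on 398 scaffolds. In all, 23408 different scaffold cytosines on 534 scaffolds were listed in at least 1 generation, among 409714 CG cytosines.

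Sperm DNA of Polypay sheep was measured by whole-genome bisulfite sequencing in 40 samples, and the diet of the F0 sire defined the groups in all generations. In the F0, 5 rams were fed encapsulated, rumen-protected methionine from weaning to puberty (treatment) and 5 rams were fed the control diet; they were male twin pairs, but which rams were twins is not given in the labels. In the F1, 5 sperm pools of sons of treated sires and 5 pools of sons of control sires were sequenced, and each pool carries the number of 1 F0 ram. Which sons went into a pool is not given in the sources used here, so a pool and the ram of its number are compared below by that number alone. In the F2, 10 grandsons of treated and 10 grandsons of control rams were sequenced one by one, 2 grandsons for each F0 ram. Per the paper, 1 son of each F0 ram was bred to give the F2, so these 2 grandsons had the same F1 father. Whether that father was in the pool of his number is not given. The sire of an F2 ram below means this F0 grandsire. All F1 and F2 animals and all mothers were kept without added methionine. An F0 ram or F1 pool is named by its number and T or C (23T, 24C), and an F2 ram as in the labels by its own number, then that of its F0 sire (ramF2_480.3T, a grandson of 3T). An F1 pool averages over several animals, and 2 F2 rams of 1 F0 sire are not independent, so p-values over the 20 F2 rams treat related rams as separate and are then too small. P-values over the 10 F0 rams or the 10 F1 pools likewise take twins, or the sons of twins, as unrelated.

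Unplaced scaffolds are short pieces of an assembly, and in mammals many of them come from tandem satellite repeats at and around centromeres, which assemblers cannot order. In most adult tissues satellite DNA is heavily methylated at CG dinucleotides. In sperm, which is otherwise among the most methylated of cell types, satellites are known to carry less. Bisulfite treatment turns unmethylated cytosine into a base read as T, so that the share of reads with C at a position is its methylation level. A genomic T at that position and an unmethylated C read alike on the strand measured.

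The level of a cytosine is the methylated reads divided by all reads over it, and the level of a sample is the mean over its listed cytosines. A cytosine entered the list of a generation only if each of its samples had 10 reads or more there, and each strand was listed separately. The samples carried a mean of 34.6 to 86.7 reads per scaffold cytosine in the F0, 37.8 to 81.7 in the F1 and 55.7 to 119 in the F2. The chromosomal means (chr1 to chr26) were 21.6 to 35.0, 19.1 to 35.3 and 17.3 to 41.0 reads. Reads of a deduplicated library still share their sperm donor, so that depth covers counting error only.

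Several samples stood apart on the scaffolds. Values with and without them are given for the main tests of CG level and for the DMC counts. Means, distributions and scatter of levels include all samples unless said otherwise. In the F0 and again in the F1, 23T and 24C had the highest scaffold levels. In the F2, rams ramF2_409.24C, ramF2_480.3T, ramF2_400.24C and ramF2_320.5T did. They are described below with the other signals that moved in them.

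Scaffold cytosines carried less CG methylation than chromosomal ones in every one of the 40 samples. The gap was 20.6 to 45.8 points over the F0 rams, 24.6 to 41.2 points over the F1 pools and 7.77 to 49.4 points over the F2 rams. In the F0 treatment rams the scaffold level was 38.8% in 3T, 37.8% in 5T, 30.5% in 9T, 34.6% in 11T and 53.0% in 23T. In the F0 control rams it was 36.6% in 4C, 36.2% in 6C, 31.1% in 10C, 30.8% in 12C and 44.5% in 24C. Ram 23T was highest and 24C next, and the ranges of the 2 diets overlapped over most of their length.

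In the F1 treatment pools the scaffold level was 41.9% in 3T, 36.9% in 5T, 34.5% in 9T, 38.0% in 11T and 50.2% in 23T. In the F1 control pools it was 37.4% in 4C, 40.3% in 6C, 37.5% in 10C, 36.8% in 12C and 43.2% in 24C. Pool 23T was again highest and pool 24C next, and the control pools lay inside the range of the treatment pools.

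The F2 rams from treated grandsires ranged from 29.1% to 65.3%, with a median of 33.1%. Those from control grandsires ranged from 28.8% to 66.3%, with a median of 32.7%. Each diet held 8 rams at or below 45.8% and 2 rams at or above 59.2%, and the 2 ranges nearly coincided.

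The mean scaffold level was 37.4% ± 6.96 (SD, n = 10) in the F0, 39.7% ± 4.54 (n = 10) in the F1 and 39.6% ± 13.1 (n = 20) in the F2. On chr1 to chr26 the level was 75.6% ± 1.10, 75.2% ± 1.23 and 77.1% ± 1.59, and on chrX it was 61.1% ± 2.11, 61.8% ± 1.81 and 68.3% ± 1.84. The scaffold mean thus varied several times more between samples than the chromosomal mean. Within samples, scaffolds were lower than chr1 to chr26 by 38.2 points in the F0 and 35.5 points in the F1 (two-sided exact sign-flip permutation test over 10 samples, p = 0.00195 in each, the smallest it allows). In the F2 they were lower by 37.5 points (sign-flip permutation test over 20 rams, p = 1e-05, the smallest 100000 resamples can give). Without 23T and 24C the difference was -41.1 points in the F0 and -37.1 points in the F1 (exact sign-flip permutation test, p = 0.00781, n = 8, the smallest it allows). Without the 4 highest rams it was -44.1 points in the F2 (permutation test, p = 9e-05, n = 16).

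The size of the gap depended on which cytosines were averaged. With each scaffold counted once, whatever its number of cytosines, it was -26.6 points in the F0, -21.9 in the F1 and -32.9 in the F2. With only cytosines of at least 20 reads in every sample it was -34.9, -32.3 and -24.3 points.

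**Figure D1:**
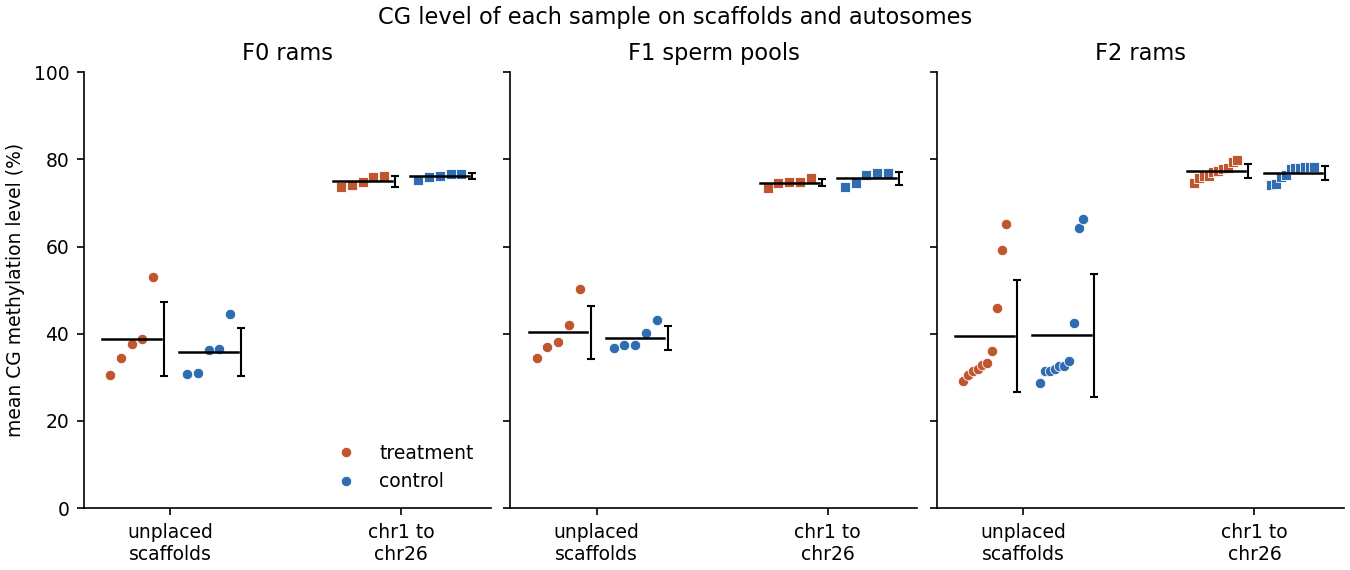
Mean CG level in percent of each sample (points) on unplaced scaffolds and on chr1 to chr26, with 1 panel per generation and separate marks for treatment and control; bars give group means and SD. Chromosomal levels lie between 73.4% and 79.8%, while scaffold levels lie between 28.8% and 66.3% and spread most in the F2, where 4 rams sit at 59.2% or higher.

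Most scaffold cytosines had an intermediate level. Averaged over samples, 64.9% of them in the F0, 66.4% in the F1 and 68.3% in the F2 had a level from 20% to 50%. Only 14.1%, 14.8% and 13.2% of chromosomal cytosines did. The level of the median scaffold cytosine was 34.6%, 37.2% and 38.5%, and that of the median chromosomal cytosine was 88.9%, 87.7% and 89.98%.

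Positions near full methylation, which made up 47.8%, 45.5% and 49.97% of the chromosomal list at over 90%, were rare on the scaffolds. They came to 238 scaffold cytosines (2.40%) in the F0, 226 (2.22%) in the F1 and 80 (0.388%) in the F2. Cytosines whose mean over samples was under 20% made up 15.8%, 10.7% and 8.22% of the scaffold list and 4.90%, 4.30% and 4.12% of the chromosomal list. In these averaged levels the 2 shapes differed mainly in the middle and at the top of the scale. Counted within single samples, the median share under 20% was 23.3%, 18.5% and 26.6% on scaffolds and 7.15%, 5.82% and 7.62% on chromosomes. On F2 scaffolds it was 2.37% to 2.63% in the 4 rams named above and 4.38% to 35.3% in the other 16.

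**Figure D2:**
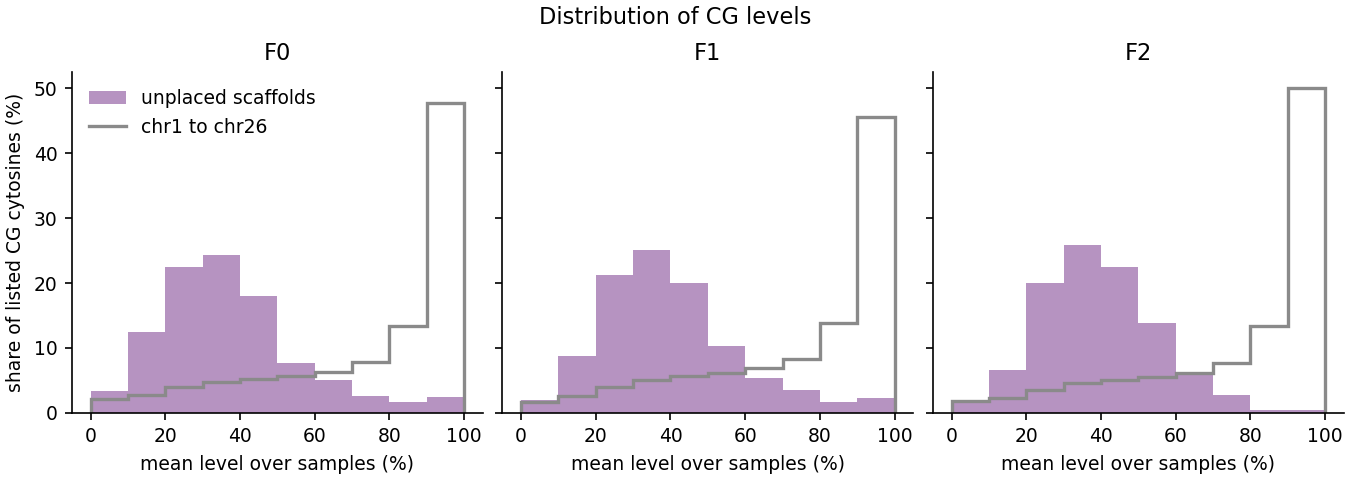
Share of listed CG cytosines in percent (vertical axis) by their mean level over samples in percent (horizontal axis), for unplaced scaffolds and chr1 to chr26, with 1 panel per generation. The scaffold curve peaks in the 20% to 50% range, which holds 64.9% to 68.3% of its cytosines, whereas the chromosomal curve piles up above 90%.

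By root mean variance, the scatter of scaffold cytosines between samples was like that of chromosomal ones in the F0 and F1 and somewhat larger in the F2. The mean SD between samples was larger on scaffolds in each generation. It was 11.6, 10.1 and 15.7 points there and 10.1, 8.81 and 11.7 points on chromosomes. The root mean variance between samples was 12.3 points in the F0, 10.6 in the F1 and 16.3 in the F2, whereas binomial counting of the reads alone gave 8.37, 8.72 and 7.78 points. The same values for chromosomal cytosines were 12.9, 10.6 and 14.6 points between samples and 7.34, 7.42 and 7.04 points from counting.

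Scaffold cytosines also drew more reads than chromosomal ones. The mean coverage on scaffolds over that on chr1 to chr26 ran from 1.15 (5T) to 3.95 (12C) over the F0 rams, from 1.35 (23T) to 3.503 (3T) over the F1 pools and from 1.67 (ramF2_329.23T) to 6.59 (ramF2_400.24C) over the F2 rams. The ratio was above 1 in all 40 samples. Its mean on the log2 scale was 1.09 in the F0, 0.92 in the F1 (exact sign-flip permutation test, p = 0.00195 in each, n = 10) and 1.52 in the F2 (permutation test, p = 1e-05, n = 20).

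The excess was smaller between typical positions. The ratio of the medians averaged 1.44 ± 0.49 (SD, n = 10), 1.29 ± 0.407 (n = 10) and 1.796 ± 0.858 (n = 20) and fell below 1 in some samples of each generation. On the log2 scale the ratio of the medians averaged 0.46 (exact sign-flip permutation test, p = 0.0117, n = 10), 0.32 (p = 0.0371, n = 10) and 0.73 (permutation test, p = 1e-05, n = 20). Of all reads on listed CG cytosines, scaffolds took 3.61% to 11.4% in the F0 and 4.63% to 11.1% in the F1. In the F2 they took 25.3% to 57.2%, while the listed chromosomal cytosines fell to 101164.

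The deepest scaffold cytosine of the F0, NW_020996350.1:25737+, averaged 1936.5 reads, that of the F1, NW_020998152.1:15613+, 1602.6 reads, and that of the F2, NW_020996350.1:25727+, 6074.3 reads. At NW_020996350.1:25727+, where counting error is negligible, the 20 F2 rams still ran from 13.2% to 70.03%. The 4 rams named above stood at 57.7% (ramF2_320.5T), 65.2% (ramF2_400.24C), 69.1% (ramF2_480.3T) and 70.03% (ramF2_409.24C). The other 16 lay at 37.8% or lower.

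On the scaffolds the level fell only slightly with depth, most in the F1. There, scaffold cytosines with a mean of 10 to 20 reads averaged 42.1% and those with 200 reads or more 37.2%. In the F0, scaffold cytosines with a mean of 10 to 20 reads averaged 39.2% and those with 200 reads or more 35.5%. In the F2 the same classes averaged 39.5% and 38.5%. On chr1 to chr26 the level went from 78.1% to 43.7% over these classes in the F0 and from 80.5% to 50.8% in the F2. The class of 200 reads or more held 191 and 287 chromosomal cytosines and 3.33% and 7.67% of the scaffold cytosines.

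Which scaffold cytosines were listed changed with the generation. Of the scaffold lists, 6708 cytosines were common to all 3 generations, which is 67.7% of the F0 list, 65.9% of the F1 list and 32.6% of the F2 list. A further 11551, or 56.1% of the F2 scaffold list, were listed in the F2 alone, while 21.8% of the chromosomal F2 list were. Comparisons between generations below therefore use the 6708 common scaffold cytosines.

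A CG dinucleotide has a cytosine on each strand. Both were listed for 48.5% of scaffold cytosines in the F0, 46.9% in the F1 and 64.1% in the F2, but for 0.323%, 0.351% and 1.41% of chromosomal ones. The levels of the 2 strands at a scaffold CG had a Pearson r of 0.946, 0.935 and 0.958 across 2401, 2387 and 6603 pairs. They differed by a mean of 3.49, 3.63 and 2.76 points. The pairs come from the same libraries and are not independent replicates. At these scaffold positions the intermediate level was therefore shared by both strands.

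Scaffold cytosines repeated at a fixed spacing. Among pairs of scaffold cytosines on the same strand and at least 200 bp apart, 816 bp was the most frequent distance in every generation, with 547 pairs in the F0, 566 in the F1 and 1466 in the F2. The mean number of pairs per distance from 700 to 799 bp was 125.1, 125.5 and 352.9. The spacing was not particular to scaffolds, since 816 bp was also the most frequent distance on chr1 to chr26 in the F2, with 247 pairs against a mean of 46.7 per distance from 700 to 799 bp. In the F0 and F1 the chromosomes held 184 and 205 pairs at 816 bp against means of 140.8 and 132.2. The main centromeric satellite of sheep, satellite I, is known as a tandem repeat with a unit of about this length. No sequence was matched here, so whether the scaffold cytosines lie in it was not tested.

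Cytosines one such step apart had similar levels. Across the 1653 scaffold pairs at 814 to 819 bp in the F0, the Pearson r of their mean levels was 0.743 and the mean absolute difference 6.36 points. Across the 781 pairs at 754 to 759 bp it was 0.013, with a difference of 14.9 points. In the F1 the r was 0.733 at 814 to 819 bp (1691 pairs) against 0.030 at 754 to 759 bp (802 pairs).

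In the F2 the r at 814 to 819 bp was 0.705 across 4589 scaffold pairs. The likeness came back at about 2 steps. The highest r among bins of 6 bp from 1200 bp was 0.696 in the F0, 0.683 in the F1 and 0.656 in the F2, at 1628 to 1633 bp. In the fixed window of 1630 to 1635 bp it was 0.643, 0.629 and 0.614. Between these distances, from 842 to 1501 bp, the median r over bins of 6 bp was 0.0023, -0.019 and 0.056. On chr1 to chr26 it was 0.608, 0.605 and 0.579 over the same distances. In the F2 the chromosomal r rose to 0.821 at 812 to 817 bp and to 0.799 at 1628 to 1633 bp, the highest bins from 600 and from 1200 bp. Pairs share cytosines, libraries and scaffolds, so these are descriptions with no test.

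**Figure D3:**
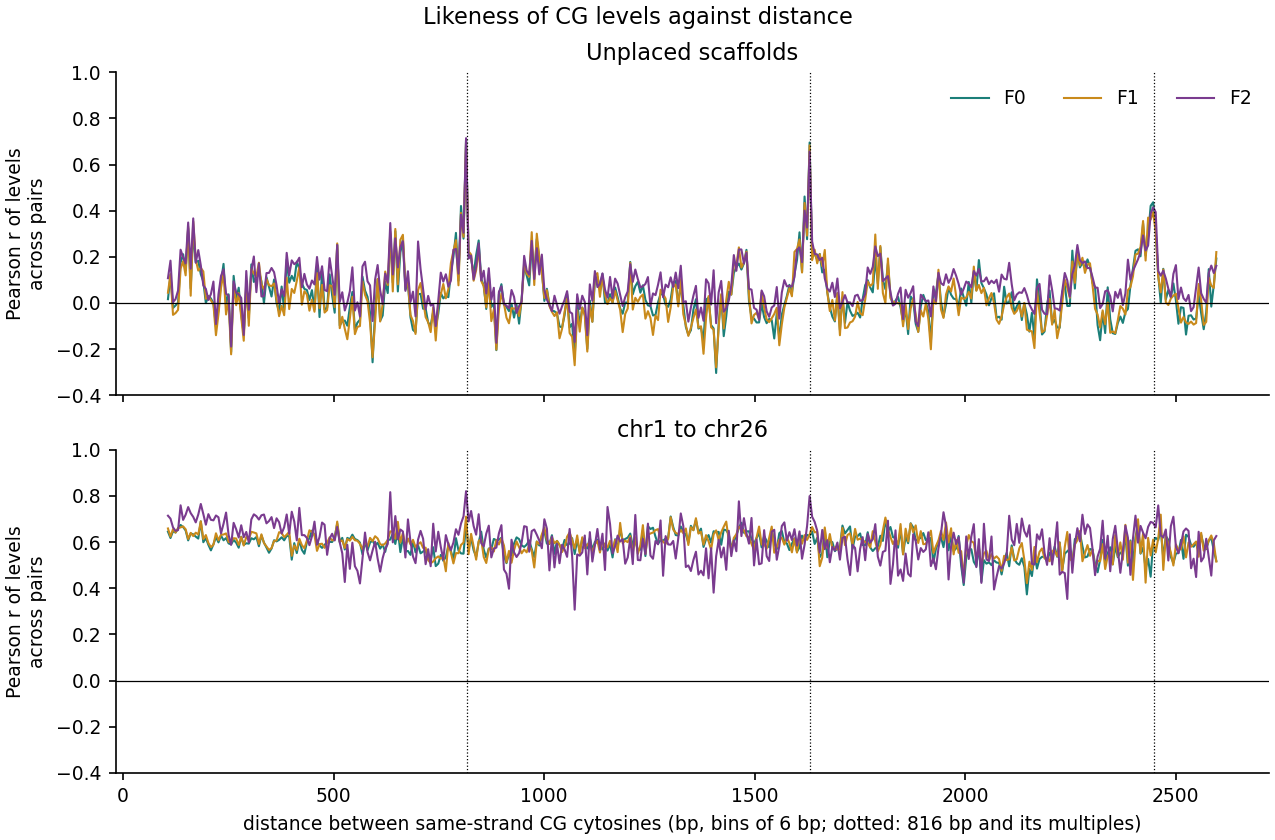
Pearson r of the mean levels of 2 same-strand CG cytosines (vertical axis) against the distance between them in bp, in bins of 6 bp, with 1 line per generation, for scaffolds (top) and chr1 to chr26 (bottom); dotted lines mark 816 bp and its multiples. On scaffolds the median r is near 0 between the first 2 dotted lines, and r rises to between 0.656 and 0.714 near these 2. On chromosomes the median r between the first 2 lines is around 0.6, with F2 peaks of 0.821 and 0.799 near them.

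The cytosines with a partner at 814 to 819 bp numbered 2677 on 44 scaffolds in the F0 (27.02% of scaffold cytosines), 2739 on 48 scaffolds in the F1 (26.9%) and 7043 on 99 scaffolds in the F2 (34.2%). In the F0 they averaged 35.2% and 69.6 reads, whereas the other scaffold cytosines averaged 38.2% and 53.1 reads. In the F1 the levels were 37.5% and 40.5%, and in the F2 38.9% and 39.96%, so that both kinds of scaffold cytosine had low levels in each generation.

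Scaffolds with at least 5 listed cytosines mostly had an intermediate level, though their F0 means ran from 3.42% to 96.7%. Of 292 scaffolds in the F0, 143 had that many, and 10 of these lay at 70% or more. Their median scaffold mean was 36.6%, 105 scaffolds lay between 25% and 50%, and 134 lay under the chromosomal mean. In the F1, 153 of 164 did, and in the F2, 273 of 275.

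The scaffold with the most cytosines, NW_020997908.1, differed from the other large scaffolds in extent and depth. Its 1542 F0 cytosines ran from position 89970 to 7637944 and fell into 76 windows of 100 kb. Its mean coverage of 27.3 reads in the F0 and in the F1 was 1.03 and 1.00 times that of chr1 to chr26, where the other scaffolds averaged 63.2 and 56.2 reads. Its level was nevertheless 41.1% in the F0, 43.1% in the F1 and 42.8% in the F2. In the F0 its samples ran from 38.4% (9T) to 48.5% (23T), which is a narrower range than on the other large scaffolds.

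On NW_020997908.1, 25.7% of F0 cytosines were under 20% and 14.9% were over 80%, so that it held more of both extremes than the scaffold list as a whole. In the F2 only 877 of its cytosines were listed, 43.6% of them in a single 100 kb window, and its coverage was 1.50 times that of chr1 to chr26.

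The next 4 scaffolds by number of F0 cytosines were small and closely alike. NW_020998535.1 (489 cytosines within positions 17469 to 22292) averaged 36.4% in the F0, with samples from 27.3% (9T) to 57.1% (23T). NW_020997317.1 (462 cytosines within 2271 to 10861) averaged 37.2%, from 28.9% (9T) to 57.2% (23T). On both, 9T was the lowest and 23T the highest ram.

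NW_020998380.1 (441 cytosines within 10984 to 23820) averaged 35.5% in the F0, from 26.1% (9T) to 53.4% (23T). NW_020997545.1 (433 cytosines within 724 to 30281) averaged 35.8%, from 26.5% (10C) to 55.5% (23T), and its deepest cytosine averaged 879.7 reads. In the F2 these 4 scaffolds averaged 37.5% to 40.6%, and ramF2_409.24C was the highest ram on each, at 70.3% to 72.6%.

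At the ends of the scale, 3 scaffolds had F0 means of 94.5% (NW_020996677.1, 8 cytosines), 95.9% (NW_020998170.1, 5 cytosines) and 96.7% (NW_020996398.1, 5 cytosines). The lowest were NW_020997179.1 at 3.42% (5 cytosines, all within positions 12461 to 12494), NW_020998404.1 at 16.1% (55 cytosines) and NW_020998291.1 at 17.0% (79 cytosines). These 6 were chosen as extremes of the F0 means, so their rank is a description.

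NW_020998404.1 went from 6.20% in 12C to 40.5% in 23T within the F0, and from 7.65% in ramF2_366.12C to 56.9% in ramF2_409.24C within the F2. On NW_020996398.1 the F0 samples stayed between 94.2% and 98.4%, and 10C, not 23T, was highest.

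**Figure D4:**
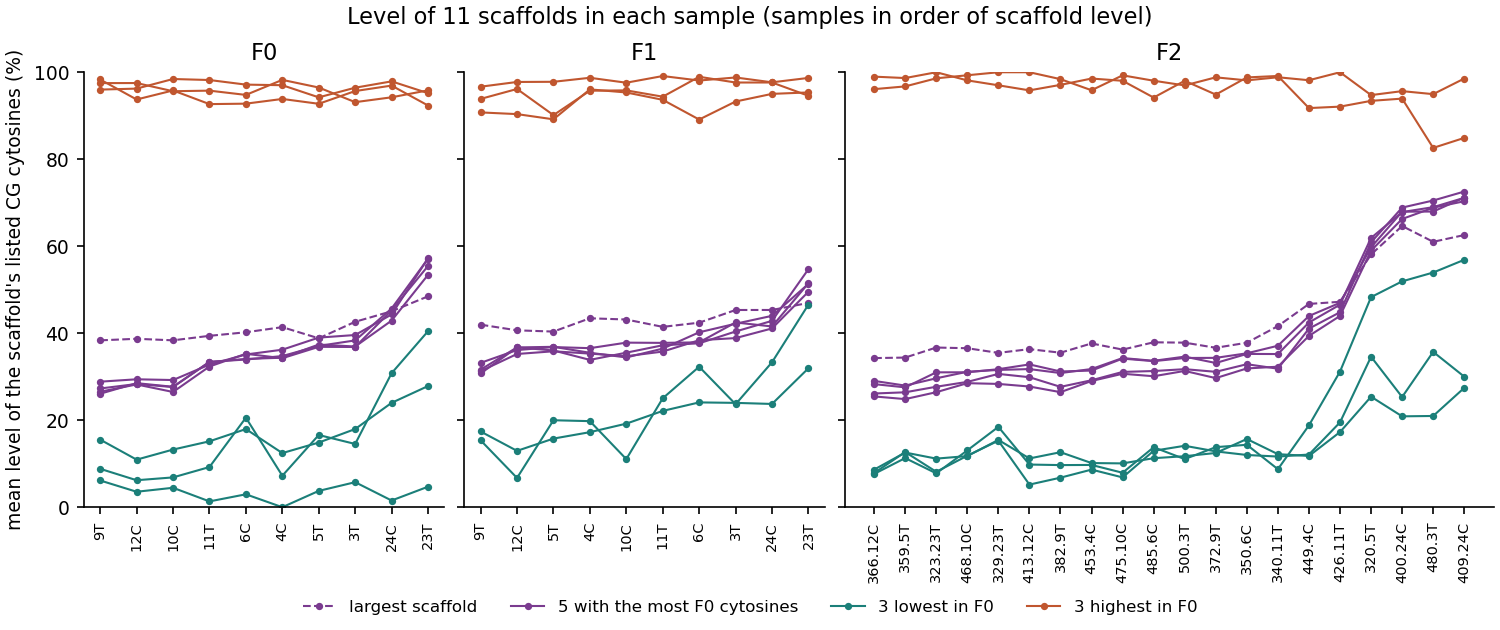
Mean CG level in percent of 11 scaffolds (lines) in each sample, with the samples of each generation ordered by their scaffold level and F2 rams written without the ramF2_ that their names share; the scaffolds are the 5 with the most F0 cytosines and the 3 lowest and 3 highest F0 means among those with at least 5. The lines of the 5 large scaffolds and of NW_020998404.1 and NW_020998291.1 rise together toward 23T in the F0 and F1. In the F2 they are highest in ramF2_320.5T, ramF2_400.24C, ramF2_480.3T and ramF2_409.24C. The 3 high scaffolds stay near the top in the F0 and F1. In the F2 NW_020998170.1 is not drawn, and NW_020996677.1 (3 cytosines) falls to 82.6% in ramF2_480.3T and 84.9% in ramF2_409.24C.

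The high samples were high across scaffolds. Of scaffolds with at least 5 cytosines, 23T was the highest sample on 106 of 143 in the F0 and on 111 of 164 in the F1. In the F2, the highest ram was 1 of the same 4 on 263 of 275 scaffolds, namely ramF2_409.24C on 109, ramF2_480.3T on 99, ramF2_400.24C on 39 and ramF2_320.5T on 16.

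Other signals moved in these 4 F2 rams. Their scaffold cytosines that were under 20% in the median ram stood at 44.2% to 50.9%, against 9.61% to 28.8% in the other 16, and those over 80% in the median ram at 83.64% to 85.56%, against 85.59% to 90.44%. Their chromosomal cytosines under 20% in the median ram stood at 19.4% to 23.1%, against 10.9% to 18.5%. The chromosomal cytosines over 90% in the median ram stood at 85.5% to 89.5% in the 4 rams, against 91.0% to 96.3%.

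Positions low or high in the median ram were thus both nearer the middle in these 4 rams. The low scaffold positions stood farther from those of the other rams than the low chromosomal ones did. The high scaffold class held only 196 cytosines, and all classes were cut on the levels of these same rams. Over all scaffold cytosines, however, the share above 80% was 6.80% to 21.6% in the 4 rams, against 0.961% to 2.29% in the others. The distance between chromosomes and scaffolds was 7.77 to 17.1 points in the 4 rams and 30.5 to 49.4 points in the other 16. Their coverage ratio of 1.88 to 6.59 spanned most of the range of the others, 1.67 to 5.25. The part of these chromosomal shifts, or of other cells in the semen, in the scaffold levels was not tested.

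The F0 rams 23T and 24C showed most of these signs at smaller size. Their scaffold cytosines under 20% in the median ram stood at 32.3% and 22.6%, against 9.33% to 16.9% in the other 8. Those over 80% stood at 86.0% in 23T, but at 89.8% in 24C, within the 87.2% to 92.6% of the other 8. In 23T the chromosomal cytosines over 90% in the median ram stood at 89.6%, the lowest of the F0, and those under 20% at 15.8%, the highest. In 24C they stood at 93.1% and 13.8%, next to 23T and outside the other 8 rams (93.6% to 95.7% and 10.3% to 13.4%). The chrX level of these 2 rams was 63.8% to 65.3%, against 59.0% to 62.1% in the others. In the F1 pool 23T the chromosomal cytosines over 90% stood within the range of the other pools, while the scaffold level was still the highest.

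Outside CG dinucleotides, scaffold methylation was low in every sample, from 0.314% to 0.530%. The mean CHG level (H is A, C or T) on scaffolds was 0.348% in the F0, 0.337% in the F1 and 0.464% in the F2, and the mean CHH level 0.329%, 0.326% and 0.417%. In each generation both were lower on scaffolds than on chr1 to chr26, with differences of -0.0586 to -0.0535 points in the F0 and F1 (exact sign-flip permutation tests, p = 0.00195 each, n = 10). In the F2 the differences were -0.0735 points (CHG, lower in 19 of 20 rams) and -0.102 points (CHH, lower in 20 of 20 rams; permutation tests, p = 1e-05 each). Without cytosines over 20% in any sample the CHG difference shrank to -0.0184 points in the F0 (exact sign-flip permutation test, p = 0.00391, n = 10, lower in 9 of 10 rams), -0.0142 in the F1 (p = 0.00195, n = 10) and -0.0324 in the F2 (permutation test, p = 0.00042, lower in 16 of 20 rams). The exceptions were 23T in the F0 and the 4 rams of highest scaffold CG level in the F2. The CHH difference then became -0.0234, -0.0206 and -0.0656 points. These 4 F2 rams also had the highest scaffold CHG level, at 0.515% to 0.530% against 0.421% to 0.481% in the other 16, and the highest CHH level, at 0.451% to 0.467% against 0.383% to 0.434%. On chr1 to chr26 the CHG level of the 4 rams was 0.516% to 0.540%, where all F2 rams ran from 0.515% to 0.571%. Their chromosomal CHH level was 0.494% to 0.524%, where all F2 rams ran from 0.494% to 0.552%. All these non-CG levels include any reads that bisulfite left unconverted, and the part of such reads in the CG levels of these rams was not tested.

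The diet of the F0 sire was then compared on the scaffold cytosines. In the F0 the treatment rams averaged 38.9% ± 8.499 (SD, n = 5) and the control rams 35.8% ± 5.55 (n = 5), a difference of 3.07 points that lay within the spread of the rams (two-sided exact permutation test, p = 0.556). In the F1 the pools averaged 40.3% ± 6.17 and 39.0% ± 2.70 (n = 5 each), a difference of 1.27 points (exact permutation test, p = 0.754). The smallest p that 5 against 5 allows is 0.00794. These tests take the rams as unrelated, because the labels do not say which were twins, so a spread between twin pairs was not separated from the spread within them. In the F2 the rams averaged 39.6% ± 12.9 and 39.6% ± 14.0 (n = 10 each), a difference of -0.063 points (permutation test, p = 0.988).

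A single number decided the sign of the first 2 differences. Without 23T the difference was -0.44 points in the F0 (exact permutation test, p = 0.905) and -1.22 points in the F1 (p = 0.508). Without both 23T and 24C it was 1.72 points in the F0 and -0.18 points in the F1, and without the 4 highest rams it was 0.69 points in the F2. With these spreads, differences of a few points between diets were not detectable.

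Cytosine by cytosine, the median treatment minus control difference over scaffold cytosines was 3.28 points in the F0, with 71.2% of cytosines higher in treatment, 1.41 points in the F1, with 60.2%, and -0.11 points in the F2, with 48.6%. Over chromosomal cytosines it was -1.15, -0.93 and 0.26 points, with 38.8%, 40.9% and 53.3% higher. Without 23T the scaffold median was -0.28 points in the F0, with 47.4% higher, and -1.11 points in the F1, with 41.3%. Without both 23T and 24C it was 1.85 points in the F0, with 62.8%, and -0.051 points in the F1, with 49.6%. The cytosines share rams, so these shares have no test.

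Single scaffold cytosines that differed by diet were few. A differentially methylated cytosine (DMC) was one whose summed reads differed by at least 20 points between the diets with an adjusted p of at most 0.01 (likelihood-ratio test, Benjamini-Hochberg adjustment over all listed CG cytosines). In the F0, 16 of 9909 scaffold cytosines (0.161%) were DMCs, 11 higher and 5 lower in treatment, against a background of 1.82% of all listed CG cytosines (0.77% higher, 1.05% lower). In the F1, 4 of 10182 (0.0393%) were, 3 higher and 1 lower, against 1% (0.458% and 0.542%). In the F2, 10 of 20608 (0.0485%) were, 2 higher and 8 lower, against 2.19% (1.1% and 1.09%).

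The scaffold share was below the background share in each generation, and that difference was not tested. The test sums reads over rams and does not see the spread between them. In none of the scaffold DMCs were the 2 diets free of overlap. Counted the other way, the diets did not overlap at 33 scaffold cytosines in the F0 (24 higher and 9 lower in treatment; background 0.575% of all CG cytosines, of which 0.119% higher and 0.455% lower), 40 in the F1 (22 higher and 18 lower in treatment; background 0.67%, of which 0.181% higher and 0.489% lower) and 0 in the F2 (background 0.000817%), and none of these was a DMC.

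With limma on the levels of single samples, 0 scaffold cytosines and 0 of all CG cytosines were called at the same thresholds in any generation, and the lowest adjusted p on scaffolds was 0.992 in the F0, 0.949 in the F1 and 1 in the F2. An unadjusted limma p under 0.05 was reached by 313 scaffold cytosines in the F0 (3.16%), 417 in the F1 (4.10%) and 133 in the F2 (0.645%). Over all CG cytosines the shares were 4.11%, 4.82% and 2.96%. On simulated data limma missed most changed cytosines at the sample numbers of the F0 and F1, so its count of 0 there says little. At the sample number of the F2 it recovered 183 of 200. The simulated data held no spread between rams, so that rate need not hold for the F2 rams.

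The DMC counts also moved with single samples. Leaving out 1 F0 ram gave 65 scaffold DMCs without 24C, 63 without 9T, 56 without 11T and 10 without 12C. Leaving out 1 F1 pool gave 16 without 12C, 15 without 11T, 14 without 6C, 13 without 9T, 12 without 5T and 7 without 24C. Without 23T and 24C together there were 23 in the F0 and 5 in the F1, and without the 4 highest rams 7 in the F2. The shares called over all listed CG cytosines in these fits are not given, so whether these moves were particular to scaffolds was not tested. The smallest summed difference past the 20-point threshold was 20.17 points in the F0, 22.32 in the F1 and 20.05 in the F2, and the largest just short of it, with a passing p, was 19.50, 18.80 and 19.78 points.

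Of the 16 F0 scaffold DMCs, 10 also differed by 20 points or more in the means of the rams, as did 4 of 4 in the F1 and 5 of 10 in the F2. The F0 DMCs lay on 12 scaffolds, 4 of them on NW_020997908.1. The F1 DMCs lay on 2 scaffolds, with 3 on NW_020997908.1, and the F2 DMCs on 4 scaffolds, with 5 on NW_020997908.1. This scaffold held more calls than any other in each generation, and it also had the most listed cytosines in each. Its calls were 0.259% of its 1542 F0 cytosines, 0.202% of its 1482 F1 cytosines and 0.570% of its 877 F2 cytosines, each below the background share of that generation.

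A single scaffold cytosine was a DMC in more than 1 generation. Of the 16 F0 DMCs, 12 were listed in the F1 and 10 in the F2. All 4 F1 DMCs were listed in the F0 and 1 in the F2. Of the 10 F2 DMCs, 6 were listed in the F0 and 8 in the F1. Only those not listed could not recur. At NW_020996221.1:461875+ the F0 treatment rams stood at 35.3% (3T), 48.8% (5T), 82.8% (9T), 0% (11T) and 65.6% (23T), and the controls at 0% (4C), 0% (6C), 50% (10C), 31.6% (12C) and 42.9% (24C). The diets overlapped, and the F0 means were 46.5% ± 31.5 and 24.9% ± 23.6 (SD, n = 5 each).

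In the F1 the treatment pools at NW_020996221.1:461875+ stood at 10% (3T), 42.9% (5T), 90.9% (9T), 22.2% (11T) and 70.7% (23T), and the controls at 13.3% (4C), 13.5% (6C), 0% (10C), 45.5% (12C) and 35% (24C). The 9T and 23T pools were the highest of the F1, as the rams of these numbers were of the F0, whereas 10C was at 50% in the ram and at 0% in the pool. The summed difference was 25.7 points in the F0 (adjusted p = 8.4e-05, likelihood-ratio test with Benjamini-Hochberg adjustment) and 30.4 points in the F1 (adjusted p = 8.5e-06). The position was not among those listed in the F2.

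Single rams took stepped levels at some DMCs of NW_020997908.1. At NW_020997908.1:1163654+, an F2 DMC higher in treatment by 26.1 points, 6 treatment rams stood at 94.3% to 100% and the other 4 at 47.5% to 51.3%. Of the F2 control rams, ramF2_475.10C, ramF2_366.12C and ramF2_413.12C were at 0%, and ramF2_449.4C was at 100%. In the F0, where it was not a DMC, the rams at this position fell into 4 at 40% to 55.2% and 6 at 93.9% or higher.

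At NW_020997908.1:5981280+, an F2 DMC lower in treatment by 23.4 points, 5 control rams were at 100% and ramF2_449.4C at 0%, while ramF2_359.5T and ramF2_323.23T were at 0%. At NW_020997908.1:512812+, an F1 DMC higher in treatment by 22.8 points, the F0 rams were either at 0% (9T, 23T, 4C, 10C and 12C) or between 43.6% and 62.2%. The F2 rams there ran from 0% to 100% in both diets. Whether these positions hold a C and a T allele was not tested, and a methylation difference and a difference in alleles cannot be told apart from the counts.

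At NW_020997908.1:4091620-, an F2 DMC lower in treatment by 26.8 points, ramF2_480.3T, ramF2_500.3T and ramF2_340.11T were at 0% and ramF2_323.23T at 92.5%, while 9 of the 10 control rams lay from 62.2% to 90.6% and ramF2_350.6C stood at 4%. Among their grandsires, 11T and 6C were at 0% in the F0 and 3T at 50%, so that the F2 rams at or near 0% descended from sires 3, 6, 11 and, at 10% on 10 reads, 5.

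**Figure D5:**
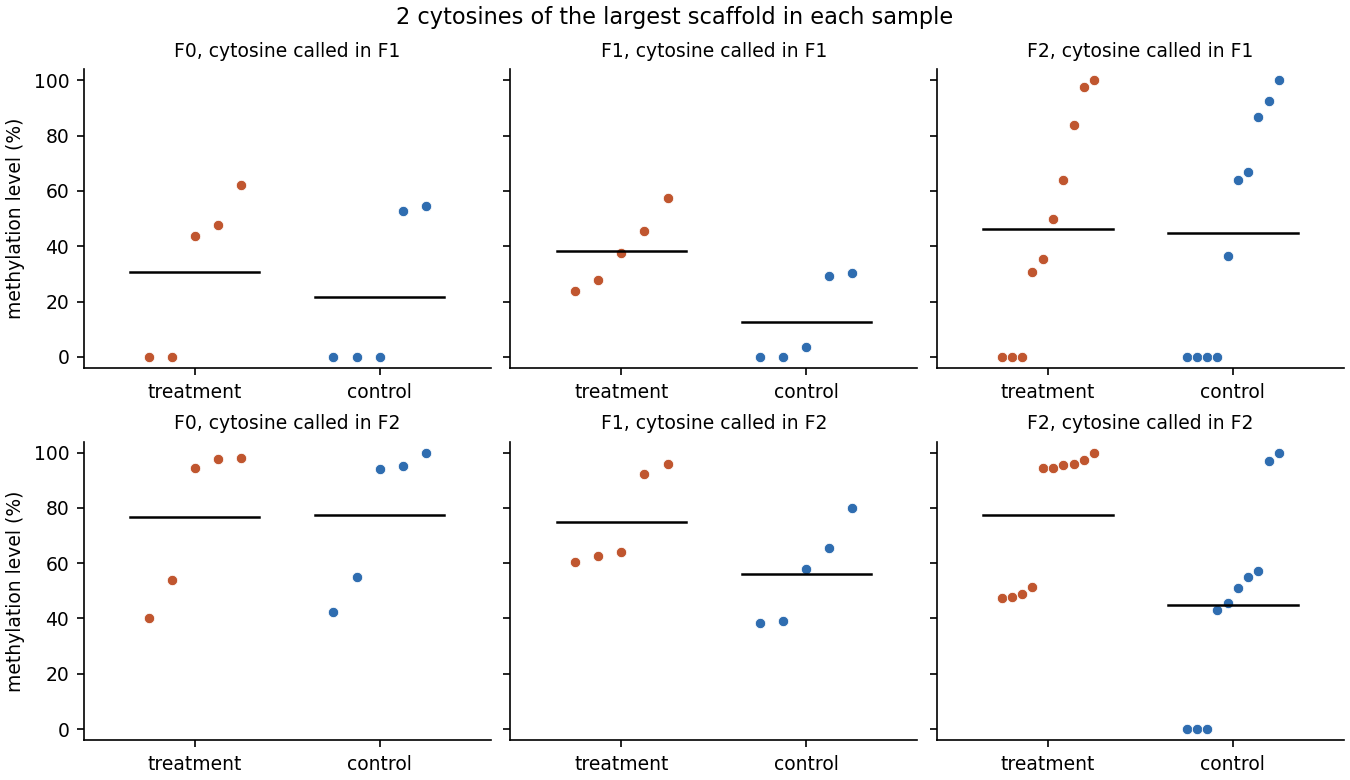
CG level in percent of each sample (points) by diet group at 2 cytosines of NW_020997908.1, with 1 panel per generation and cytosine and black lines at the group means. At NW_020997908.1:1163654+ (bottom) the F0 rams sit at 40% to 55.2% or at 93.9% and above, while the F1 pools run from 38.5% to 95.8%. At NW_020997908.1:512812+ (top) the F0 rams sit at 0% or from 43.6% to 62.2%, the F1 pools run from 0% to 57.5% and the F2 rams from 0% to 100%.

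The summed difference and the difference of the ram means parted at a few DMCs. At NW_020996467.1:19344-, an F2 DMC lower in treatment by 24.5 points in summed reads, the means of the rams differed by only -1.23 points (20.1% ± 23.5 against 21.3% ± 28.8, SD, n = 10 each). Its coverage ran from 11 to 303 reads, and the deep control rams ramF2_400.24C (74.2%, 260 reads), ramF2_409.24C (70.7%, 191 reads) and ramF2_449.4C (32.7%, 303 reads) carried most of the control reads. The other deep rams were ramF2_382.9T, with 6.77% over 266 reads, and ramF2_320.5T, with 54.4% over 180 reads.

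The largest F0 differences in summed reads were a loss of 31.9 points at NW_020996086.1:8317- and a gain of 29.3 points at NW_020996702.1:7903+. At NW_020996086.1:8317- 5T, 9T, 11T, 6C and 10C were at 0% and 4C was at 100%, and the means were 15.3% ± 21.0 against 42.0% ± 43.1 (SD, n = 5 each). At NW_020996702.1:7903+ the treatment rams ran from 26.7% to 63.0% and the controls from 7.69% to 45.5%. At neither position did the F2 rams differ past the threshold, with treatment minus control means of 5.197 and 0.29 points.

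Generations were compared on the 6708 scaffold cytosines listed in all 3. Their level was 35.9% ± 8.02 (SD, n = 10) in the F0, 37.6% ± 5.10 (n = 10) in the F1 and 39.1% ± 13.3 (n = 20) in the F2. The F1 was 1.73 points above the F0 (exact permutation test, adjusted p = 0.779), the F2 was 3.19 points above the F0 and 1.46 points above the F1 (permutation tests, adjusted p = 0.779 each, Benjamini-Hochberg over 3). All 3 differences were smaller than the spread within a generation. Without the 8 samples of highest level the F2 was -2.73 points from the F1 (permutation test, adjusted p = 0.218), so the sign of that difference rested on them. The F2 was then 0.278 points and the F1 3.004 points above the F0.

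Relative to the chromosomal cytosines listed in all 3 generations, the scaffold level changed by 1.66 points from F0 to F1, 1.78 points from F0 to F2 and 0.12 points from F1 to F2 (permutation tests, adjusted p = 0.988 each). Without the 8 samples they were 3.18, -1.48 and -4.66 points. The difference between the diets in how the level changed from one generation to another was -2.07 points for F0 to F1, -4.14 points for F0 to F2 and -2.06 points for F1 to F2, over 5 numbers a diet (exact permutation tests, adjusted p = 0.778 each).

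The scaffold level of a ram and that of the pool with his number went together. Over the 10 numbers the F0 and F1 levels on the common scaffold cytosines had a Pearson r of 0.936 (permutation test, p = 0.00035, adjusted 0.0021 over 6 relations) and a Spearman rho of 0.903 (permutation test, p = 0.00109, adjusted 0.00654). Without numbers 23 and 24, the farthest from the median, r was 0.691 over 8 numbers (exact permutation test, p = 0.0561), so the relation rests in part on them. On these cytosines the F0 rams ran from 27.7% to 53.9% and the pools from 31.5% to 49.6%. These permutation tests, and those with the F2 below, shuffle the numbers as unrelated although the F0 rams were twin pairs. Their p-values can therefore be too small.

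No such relation passed the test with the F2. The F0 level and the mean of the 2 F2 rams had an r of 0.332 (permutation test, p = 0.317, adjusted 0.635) and a rho of 0.503 (p = 0.143, adjusted 0.285). Without sires 23 and 24 the r was 0.837 over 8 sires (exact permutation test, p = 0.0115, not adjusted). The F2 means of sires 3 and 5, 49.1% and 43.3%, still held the high rams ramF2_480.3T (64.9%) and ramF2_320.5T (58.7%). The other grandsons of these sires stood at 33.3% and 27.9%. The relation without these high rams was not computed. The F1 and F2 levels had an r of 0.203 (permutation test, p = 0.53, adjusted 0.637) and a rho of 0.455 (p = 0.19, adjusted 0.285), and an r of 0.607 without sires 23 and 24 (exact permutation test, p = 0.11, n = 8).

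Sires 23 and 24 went opposite ways in the F2. The grandsons of 23T stood at 30.5% and 31.5%, among the lower F2 rams, although the F0 ram 23T and the F1 pool 23T had been the highest of their generations. The grandsons of 24C stood at 64.3% and 66.3%, among the 3 highest.

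Some F2 rams of the same sire lay far apart. The gap was 32.3 points for sire 3 (33.0% and 65.3%) and 30.1 points for sire 5 (29.1% and 59.2%), and it ran from 1.05 to 10.5 points for the other 8 sires. A high scaffold level was thus shared by both grandsons of sire 24, by 1 of 2 grandsons of sires 3 and 5, and by neither grandson of sire 23. The 2 grandsons of a sire came through 1 F1 ram, whereas a pool averages over several sons.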

How the data were processed

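Per the study's methods and the submitters' processing notes, the authors trimmed reads with Trim Galore, aligned them with Bismark and Bowtie2 to Oar_rambouillet_v1.0, removed duplicates and tabulated reads per cytosine with methylKit. The deposited values are counts per cytosine and sample, not normalized: all reads and methylated reads were used, and 120 columns of unmethylated reads were not. Cytosines under 10 reads in any sample of a generation are left out of its file. Bismark keeps reads with a unique best alignment, so the coverage of repeats is that of the reads kept. Each level was computed as methylated over all reads, per strand.

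Samples were grouped by the labels. Level and coverage on scaffolds were compared with chr1 to chr26 by two-sided sign-flip permutation, and diets and generations by permutation over samples (exact up to 10 against 10 samples of F0 and F1, otherwise 100000 resamples), with a threshold of 0.05. DMCs were called by a likelihood-ratio test on summed reads with Benjamini-Hochberg adjustment over all listed CG cytosines (summed difference 20 points or more, adjusted p not above 0.01). The likelihood-ratio test and limma were tested on simulated data, which held counting error and no spread between rams. The named scaffolds and cytosines are the 5 scaffolds with most F0 cytosines, the 3 lowest and 3 highest F0 scaffolds with at least 5 cytosines, DMCs of 2 generations, the 3 largest DMCs per generation and direction, and the deepest cytosine per generation. The members and lists were chosen with earlier results of these data known. Alternatives included a minimum of 20 reads, each scaffold counted once, other DMC thresholds, and CHG and CHH levels by reads or without cytosines over 20% in a sample. No label gives a library batch. No genome of this build was used, so no gene, repeat class or sequence is given. Gene expression was not analysed here. Python 3.11.15, pandas 2.3.3, NumPy 2.4.6, SciPy 1.17.1, matplotlib 3.10.9, R 4.3.3 and limma 3.58.1 were used.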

Additional observations from a re-analysis of the deposited data

Results flagged for a closer look

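Of 84 groups of 5 to 10 samples examined at the named scaffold cytosines, 9 held 1 sample far from the others by Dixon's criterion at 95%. That criterion assumes independent normal values. Most of these cytosines were picked as DMCs, some have stepped levels, and the same samples recur, so no chance rate can be set beside the count. Of 30 further groups, of scaffold level, distance to the chromosomes, coverage ratio and non-CG level, 0 did. Of these, 7 lie on NW_020997908.1 in the F0 or F1. At NW_020997908.1:1950411+ the control 6C stood at 45.5% in the F0 and at 42.3% in the F1, where the other controls were at 0%, and the F1 treatment pool 5T stood at 9.09% among pools at 34.5% to 42.9%. The F0 ram 6C was also low at NW_020997908.1:1729631- (45.4545%, others 88.9% to 100%) and at NW_020997908.1:4091620- (0%, others 70.6% to 85.7%). At NW_020997908.1:4091620- the F2 control ramF2_350.6C, a grandson of the same sire, was at 4%, with the others at 62.2% to 90.6%. At NW_020997908.1:306230+ the F0 control 4C was at 48.9% (others 87.5% to 100%), and at NW_020997908.1:2215452+ the F1 control 12C was at 62.5% (others 76.7% to 82.4%). At NW_020996146.1:3580-, an F0 DMC, the control 24C was at 80%, with the other controls at 12.5% to 25%. The causes were not tested.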

How the results depend on the processing

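Of 221 recomputed values, 187 kept their direction and their side of the threshold or stayed near the reported count. The scaffold level stayed below that of chr1 to chr26 under every alternative run, from -41.1 to -26.6 points in the F0, -37.1 to -21.9 in the F1 and -44.1 to -24.3 in the F2, and the higher scaffold coverage stayed past the threshold. Leaving out 1 sample at a time gave -40.2 to -37.4 points in the F0 and -36.7 to -34.9 in the F1. The alternatives without the 2, 4 or 8 samples of highest level were chosen after seeing the data.

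No diet or generation difference in level passed 0.05 under any alternative, and several changed sign. Leaving out 1 sample moved the diet difference from -0.439 to 5.23 points in the F0 and from -1.22 to 2.73 in the F1, below 0 only without 23T. Counting each scaffold once gave -0.0064 points in the F1 and 0.541 in the F2. Leaving out high coverage gave 0.041 in the F2, and leaving out the highest samples -0.175 in the F1 and 0.691 in the F2. For F2 minus F1, the scaffold minus chromosome difference was -0.754 with at least 20 reads, -0.0058 with each scaffold once and -4.66 without the 8 highest samples. Without them the F2 minus F1 level was -2.73, and the scaffold minus chromosome difference for F2 minus F0 was -1.48. Leaving out 1 sample gave 0.396 to 3.73 points for F1 minus F0.

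The DMC counts were the least stable. In the F0 they were 4 at 25 points, 3 with at least 20 reads, 0 by limma, and 10 to 65 without 1 sample. In the F1 they were 1, 1, 0 and 4 to 16, and in the F2 2 at 25 points, 0 with at least 20 reads and 0 by limma. Cytosines without overlap between the diets, none of them a DMC, numbered 33 in the F0, 40 in the F1 and 0 in the F2. In the F0 these were 0.333% of scaffold cytosines against 0.575% of all, and in the F1 0.393% against 0.67%. By limma 0 of all CG cytosines were called, and the shares over all CG cytosines under the other alternatives are not given. With a stricter read minimum fewer cytosines are tested, and for the other moves the cause was not tested.

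A replicate block by sire number changed no call. With it, adjusted p was 0.516 for F1 minus F0, 0.606 for F2 minus F0 and 0.674 for F2 minus F1. Per-cytosine deviations had an r over 0.1 with their own number for 4 of 10 numbers between F0 and F1, 5 between F0 and F2 and 3 between F1 and F2, so they were not taken as pairs in the tests of level between generations. The sire correlations and the diet difference in change between generations match samples by number. Own numbers correlated best for 3, 2 and 3 of 10.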

Other observations

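On chr1 to chr26 the cytosines with a same-strand partner at 814 to 819 bp resembled the scaffold cytosines in the F2. These 915 chromosomal cytosines averaged 41.8% and 262.8 reads, against 77.4% and 27.3 reads for the other chromosomal cytosines. Over the F2 rams they ran from 31.4% to 69.3%, with ramF2_409.24C highest and ramF2_480.3T next, the order also seen on the scaffold cytosines with such a partner (26.8% to 69.5%). In the F0 the 1621 such chromosomal cytosines averaged 65.6% and ran from 63.4% to 69.5%, with 23T highest and 24C next. Across these chromosomal pairs the levels had an r of 0.849 in the F2 (631 pairs), against 0.505 at 754 to 759 bp and 0.594 at 874 to 879 bp, and an r of 0.713 in the F0 (886 pairs).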
